A study of Mus musculus with 12 samples.

Results

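Glycogen is the branched glucose polymer in which the liver stores sugar after a meal and from which it releases glucose between meals. The 9 genes described here (Ugp2, Gyg, Gys2, Gbe1, Pygl, Phka2, Ppp1r3b, Ppp1r3c and Ppp1r3g) encode the enzymes that build the polymer, the enzymes that take it apart and the subunits that switch both. They were chosen by name, and every probe set that the platform annotation pairs with one of them was taken. On the array a transcript is measured by a probe set, several short probes read together. They are 9 of the 18193 genes that a probe set names alone, and they had 17 of the 45037 probe sets tested, and each of the 17 named a single gene. Where a gene had several, the one with the highest mean log2 signal over the 12 arrays is called the leading probe set.

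Synthesis starts from UDP-glucose, which Ugp2, the UDP-glucose pyrophosphorylase, makes from glucose-1-phosphate. Glycogenin (Gyg) lays down the first short chain of glucose on itself. Gys2, the liver glycogen synthase and the rate-limiting enzyme of synthesis, lengthens the chain, and the branching enzyme Gbe1 puts in the branch points. Breakdown is carried out by Pygl, the liver glycogen phosphorylase, which is switched on by phosphorylase kinase, and Phka2 is the liver form of the regulatory alpha subunit of that kinase. Ppp1r3b, Ppp1r3c and Ppp1r3g are targeting subunits that bring protein phosphatase 1 to the glycogen particle, where the phosphatase activates the synthase and inactivates the phosphorylase. Much of the control of these enzymes is by phosphorylation and by glucose-6-phosphate, which a measurement of RNA does not see.

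Liver RNA came from 12 male C57BL/6 mice, 1 mouse per array, that were adults of 6 to 8 weeks at the outset and ate a standard diet freely. The 4 control mice (replicates 1 to 4) breathed filtered air. The 4 SHS4m mice (replicates 66 to 69) were exposed to secondhand smoke (SHS), whole body, for 4 months, and the 4 SHS4m+1m recovery mice (replicates 70 to 73) had the same exposure followed by 1 month in clean air. The control mice were age-matched in subgroups with and without a recovery period, the labels do not say from which subgroup each control array came, and the sources used here do not give the time of day at which livers were taken. Glycogen itself was examined by histology in the study, and only the transcripts of the pathway are described here.

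The values are signals on a linear scale that the authors scaled to the same trimmed mean of 500 on every array. Signals below 32, from 29.9% to 33.5% of each array, were raised to 32, so a transcript near this floor can show only part of a change, and the log2 was then taken. Median signals were 65.2 to 78.2. Recovery replicate 72 had a 3'/5' actin ratio of 8.82, a measure that is high in degraded RNA, where the other 11 arrays had 3.24 to 4.64. Hepatocyte markers were bright throughout. Their summed signal over 8 genes was 412745 to 470243 in controls, 368012 to 417838 in SHS4m mice and 331604 to 524458 in recovery mice. The median log2 difference of the 8 was -0.27 in SHS4m mice, -0.12 in recovery mice and 0.10 between the SHS groups. None of the 8 passed limma's adjusted test in any comparison. In SHS4m mice against controls 2 of the 8 had an unadjusted p under 0.05, beside 7856 of the 45037 probe sets. In the other comparisons 0 of the 8 had. In bulk liver, fewer cells of a type and less RNA per cell cannot be told apart.

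The leading result was Gys2. Its signal was lowest in controls, higher in SHS4m mice and highest in SHS4m+1m recovery mice, with no overlap among the 3 groups. The gaps were small, from 5564 to 5645 below the SHS4m arrays and from 7800 to 7877 above them. Such separation was seen for 11.8% of all probe sets in SHS4m mice against controls, 7.61% in recovery mice against controls and 8.24% between the SHS groups. The difference from controls passed the test after recovery, at 2.402-fold, and did not pass it at the end of exposure, at 1.76-fold. The pass after recovery held in 15 of 21 alternative analyses. The difference between the SHS groups did not pass (adjusted p = 0.401 in limma). No other leading probe set of the 9 genes passed the test in any comparison. A dim second probe set of Phka2 was the only other probe set to do so.

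Counted over the 17 probe sets, 1 passed a Benjamini-Hochberg adjusted p under 0.05 in SHS4m mice against controls (Phka2 1437941_at, up), beside 5.40% of all probe sets. In recovery mice against controls 1 passed (Gys2, up), beside 2.07%, and between the SHS groups 0 passed, beside 2.54%. Each pass at the adjusted p is of a single probe set. Between the SHS groups 2 of the 17 had an unadjusted p under 0.05 in limma, beside 6185 of the 45037 probe sets. At the study threshold, an unadjusted p under 0.05 with a 2-fold change, the count in SHS4m mice was 1 (Ppp1r3g, up), beside 2.47% of all probe sets. In recovery mice it was 3 (Gys2 and Ppp1r3g up, the dim Ppp1r3c probe set 1425631_at down), beside 1.37%, and between the SHS groups it was 0, beside 1.70%. These counts moved with the settings. The SHS4m count was 3 with a floor of 16, with no floor or with the arrays centred, Ppp1r3b and Phka2 1437941_at being added, and the recovery count was 1 (Gys2) without control replicate 3, control replicate 4 or recovery replicate 71. The median log2 difference of the 9 leading probe sets was 0.27 in SHS4m mice, 0.20 in recovery mice and -0.12 between the SHS groups, and over all probe sets it was 0 in each. Both comparisons with controls use the same 4 control arrays, so their values are set side by side and are not independent of each other.

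**Figure D1:**
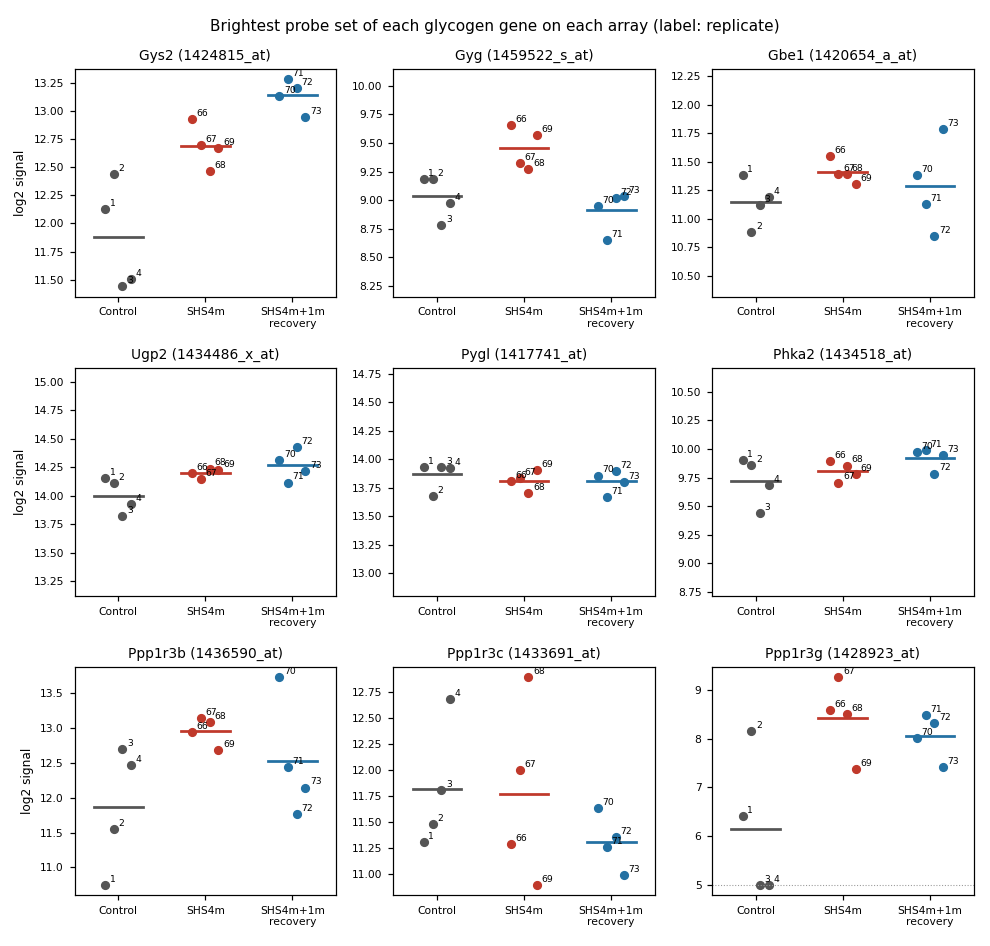
Log2 signal (y axis, a different range in each panel) of the leading probe set of each of the 9 glycogen genes on each array, with the replicate number beside each point, by group (x axis). Horizontal bars are group means of 4 arrays, and the dotted line in the Ppp1r3g panel is the floor of 32 (log2 of 5). The 3 groups of Gys2 do not overlap, while control replicates 3 and 4 of Ppp1r3g lie at the floor.

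Of the genes of synthesis, Ugp2 had the most probe sets, 5 in all. The leading one, 1434486_x_at, whose suffix marks probes that may also bind similar transcripts, read 18236, 17666, 14443 and 15525 in control replicates 1 to 4. It read 18773, 18118, 19314 and 19132 in the SHS4m mice. In the recovery mice the signals were 20378, 17738, 21981 and 19034. The SHS4m arrays thus sat in a narrow band that began just below the highest control. The recovery arrays spread more widely, from 17738 to 21981, and the ranges of the groups overlapped. The log2 difference was 0.20 in SHS4m mice (95% interval 0.01 to 0.39, adjusted p = 0.248) and 0.27 in recovery mice (0.08 to 0.45, adjusted p = 0.168). The other 4 Ugp2 probe sets gave log2 differences of 0.05 to 0.33 in SHS4m mice and 0.12 to 0.30 in recovery mice. All 5 were thus positive in both comparisons, none passed the adjusted test, and they measure the same gene on the same arrays.

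Gyg, the primer protein, was read by 2 probe sets. The leading one, 1459522_s_at, read 583, 583, 440 and 502 in controls. Its signals were 807, 640, 617 and 759 in SHS4m mice. After recovery they were 494, 401, 520 and 525. Every SHS4m array was above every control and every recovery array, and the recovery arrays, at 401 to 525, reached below the lowest control. Its log2 difference was 0.42 in SHS4m mice (standard error 0.129, 95% interval 0.13 to 0.71, adjusted p = 0.103), -0.12 in recovery mice (adjusted p = 0.776) and -0.54 between the SHS groups (95% interval -0.83 to -0.25, adjusted p = 0.0657). None of these passed the adjusted test. The dimmer Gyg probe set, 1448429_at, had overlapping groups, with 85.9 to 213 in controls, 148 to 284 in SHS4m mice and 130 to 260 in recovery mice, and its log2 difference between the SHS groups was -0.10 (adjusted p = 1).

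Gys2, the liver glycogen synthase, had 1 probe set, 1424815_at. In control replicates 1 to 4 it read 4468, 5564, 2780 and 2904. The SHS4m mice read 7800, 6630, 5645 and 6526. The recovery mice read 8974, 9981, 9463 and 7877. The controls spread most, with replicates 3 and 4 well below replicates 1 and 2, yet the highest control (5564) was still below the lowest SHS4m array (5645), and the highest SHS4m array (7800) was just below the lowest recovery array (7877). On the log2 scale the means were 11.88 ± 0.49 in controls, 12.69 ± 0.19 in SHS4m mice and 13.14 ± 0.15 in recovery mice (SD, n = 4 each).

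In limma, the log2 difference of Gys2 from controls was 1.26 after recovery (standard error 0.214, 2.402-fold with a 95% interval of 1.72 to 3.35, adjusted p = 0.0209) and 0.81 at the end of exposure (1.76-fold with an interval of 1.26 to 2.45, adjusted p = 0.0617). Recovery mice exceeded SHS4m mice by 0.45, with an interval of -0.03 to 0.93 (adjusted p = 0.401), so a further rise after exposure was not established by the fit. The exact two-sided permutation test of 4 arrays against 4 gave an unadjusted p = 0.0286 in each of the 3 comparisons, the smallest value that its 70 splits allow. Any probe set whose groups do not overlap has this value, so it adds nothing to the lack of overlap. Groups did not overlap for 11.8% of all probe sets in SHS4m mice against controls, 7.61% in recovery mice against controls and 8.24% between the SHS groups. Gys2 is among the genes that the study itself listed from these arrays, so its test is not independent evidence. The same holds for Ppp1r3b and Ppp1r3g, and for Slc37a4, Stbd1 and Pgm2l1 among the other pathway genes below. Without control replicate 3, control replicate 4, recovery replicate 71 or recovery replicate 72, the adjusted p in recovery mice was 0.0503, 0.0530, 0.0577 and 0.0570, with log2 differences of 1.12, 1.14, 1.22 and 1.24.

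Gbe1, the branching enzyme, was read by 1420654_a_at. Controls read 2667, 1887, 2231 and 2342. SHS4m mice read 2997, 2691, 2692 and 2531, and recovery mice 2672, 2240, 1842 and 3533. The SHS4m arrays were tightly grouped, the lowest of them (2531) under the highest control, and the recovery arrays held both the lowest and the highest signal of the 12. For this enzyme the log2 difference was 0.27 in SHS4m mice (95% interval -0.14 to 0.67, adjusted p = 0.549) and 0.14 in recovery mice (-0.27 to 0.55), neither past the test.

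Pygl, the phosphorylase that breaks glycogen down, was the steadiest of the leading probe sets. Probe set 1417741_at read 15636, 13138, 15683 and 15552 in controls. It read 14353, 14602, 13368 and 15346 in SHS4m mice, and 14849, 13030, 15238 and 14270 in recovery mice. All 3 groups covered nearly the same range, and 8.90% of the variance of the log2 signal lay between groups, against 78.8% for Gys2. Pygl differed by a log2 of -0.06 in both comparisons with controls, with 95% intervals of -0.22 to 0.11 in SHS4m mice and -0.22 to 0.10 in recovery mice (adjusted p = 0.794 and 0.792). The ends of these intervals correspond to 0.861-fold and 1.08-fold in SHS4m mice.

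Phka2, the kinase subunit, was read by 3 probe sets, of which the leading one was 1434518_at. Controls read 959, 926, 693 and 822, SHS4m mice 950, 835, 926 and 877, and recovery mice 1006, 1015, 882 and 985. The groups overlapped, and the log2 difference was 0.09 in SHS4m mice (95% interval -0.13 to 0.31, adjusted p = 0.739) and 0.20 in recovery mice (-0.02 to 0.42, adjusted p = 0.421). A second probe set, 1437941_at, was dim, with 45.5, 33.9, 24.2 and 9.58 in controls, 79.1, 65.8, 75.3 and 52.1 in SHS4m mice and 42.8, 7.63, 57.6 and 36.2 in recovery mice. It was the one that passed the test in SHS4m mice, where every array was above every control (log2 0.92, standard error 0.204, adjusted p = 0.0303). In recovery mice its log2 difference from controls was 0.21 (adjusted p = 0.727). The pass depended on the floor, since 2 control arrays and 1 recovery array lay below 32, and with a floor of 16 the log2 difference was 1.27 (adjusted p = 0.124), and with no floor 1.41 (adjusted p = 0.289). It was also lost without any of 3 control arrays (replicates 2, 3 and 4; adjusted p = 0.0693, 0.0831 and 0.0813) or any of 3 SHS4m arrays (replicates 66, 67 and 68; adjusted p = 0.0814, 0.0689 and 0.0802), with log2 differences of 0.84 to 0.93. The third probe set, 1430492_at, was below 32 on all 12 arrays. The probe sets of Phka2 therefore disagreed in size, and the bright one did not move beyond its spread.

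**Figure D2:**
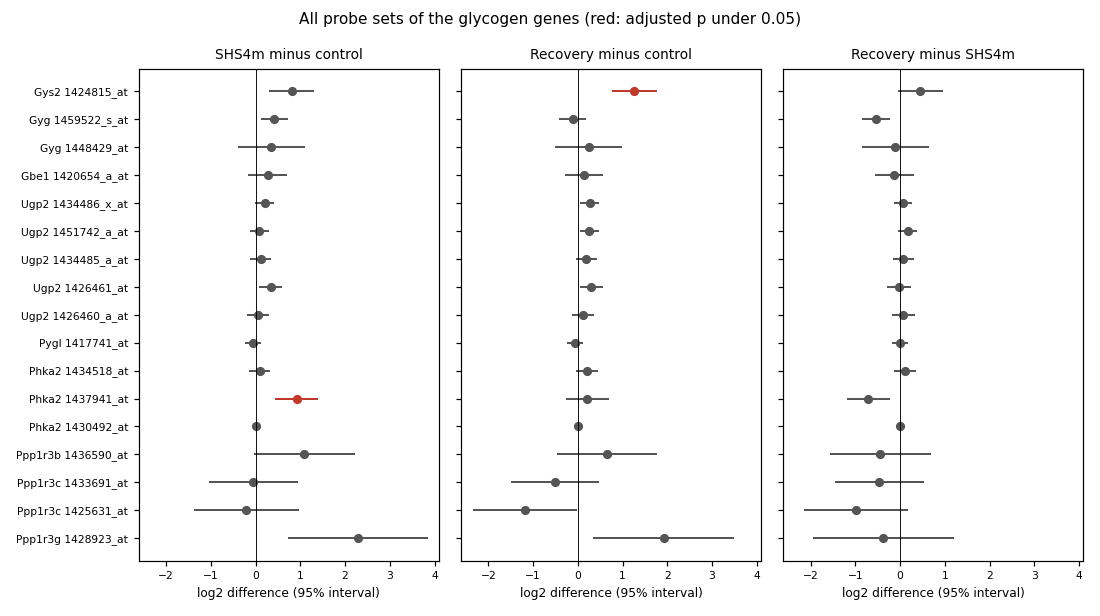
Log2 difference between group means (x axis) for each of the 17 probe sets of the glycogen genes (y axis), in 3 panels for the 3 comparisons. Points are limma estimates, bars are 95% intervals, and red marks an adjusted p under 0.05, which Gys2 reached in recovery mice against controls and Phka2 1437941_at in SHS4m mice against controls.

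The 3 phosphatase targeting subunits varied most from mouse to mouse. Ppp1r3b, the form that is abundant in liver, read 1725, 3006, 6667 and 5672 in control replicates 1 to 4 on probe set 1436590_at. SHS4m mice read 7890, 8997, 8687 and 6545. Recovery mice read 13525, 5550, 3495 and 4528. The SHS4m arrays were high and close together, though the lowest of them was below control replicate 3, while controls and recovery mice each spanned more than a 3-fold range. Against controls the log2 difference was 1.09 in SHS4m mice (2.13-fold, 95% interval 0.991 to 4.58, adjusted p = 0.294) and 0.65 in recovery mice (1.57-fold, 0.730 to 3.37, adjusted p = 0.675). Neither was larger than the spread allows, and the intervals do not limit the difference to a small one.

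Ppp1r3c, also known as protein targeting to glycogen, was read by 2 probe sets. The leading one, 1433691_at, read 2535, 2860, 3582 and 6574 in controls, 2505, 4104, 7586 and 1910 in SHS4m mice and 3174, 2454, 2624 and 2038 in recovery mice. Controls and SHS4m mice each held 1 high array, at 6574 and 7586, and the recovery mice held none above 3174, with all 3 ranges overlapping. For the leading probe set the log2 difference was -0.05 in SHS4m mice (95% interval -1.02 to 0.92, adjusted p = 1) and -0.51 in recovery mice (-1.48 to 0.46, adjusted p = 0.683). The dim probe set 1425631_at read 130, 57.3, 169 and 220 in controls, 64.8, 124, 170 and 115 in SHS4m mice and 120, 49.4, 6.47 and 54.9 in recovery mice, the value under the floor being that of replicate 72. It met the study threshold in recovery mice (log2 -1.18, unadjusted p = 0.0434 in limma) and not the adjusted test (adjusted p = 0.349). The study threshold was no longer met without any 1 of 8 of the 12 arrays, with log2 differences of -0.91 (without recovery replicate 72, adjusted p = 0.587) to -1.18.

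Ppp1r3g had the largest fitted difference of the 9 genes and the widest spread. Probe set 1428923_at read 84.9 and 286 in control replicates 1 and 2, and 5.56 and 3.16, both under the floor, in replicates 3 and 4. SHS4m mice read 384, 614, 364 and 166, and recovery mice 259, 361, 319 and 170. All 8 SHS arrays were thus well above the floor and above 3 of the 4 controls, while control replicate 2 lay within the range of both SHS groups. The log2 difference was 2.29 in SHS4m mice (standard error 0.693, 4.89-fold with a 95% interval of 1.67 to 14.3, adjusted p = 0.0992) and 1.92 in recovery mice (3.78-fold, 1.29 to 11.1, adjusted p = 0.238). It met the study threshold in both comparisons and the adjusted test in neither. Without control replicate 2 it passed in both, with log2 differences of 2.96 and 2.59 (adjusted p = 0.0162 and 0.0470). Without control replicate 3 they were 1.91 and 1.54 (adjusted p = 0.223 and 0.457), and without control replicate 4 they were also 1.91 and 1.54 (adjusted p = 0.219 and 0.438), and the study threshold was then no longer met in recovery mice, nor was it there without recovery replicate 71. The size of the fold depends on the floor, because the 2 lowest control arrays enter at 32.

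Promoter windows were looked up for the 9 genes in RefSeq on GRCm38.p6, 250 bases before each annotated start. The table held 8 windows for 7 of them, with 2 for Ugp2, and none for Gys2 or Ppp1r3b. The windows of Ppp1r3c, Ppp1r3g and Phka2 are shown because they belong to 2 of the phosphatase subunits, whose signals varied most between mice, and to the gene whose dim probe set passed the test. Capitals mark the matches to the motifs searched, on both strands. These were the E-box CACGTG, the D-box as TTATGTAA or TTATGCAA, the cyclic AMP response element TGACGTCA, the forkhead motif TGTTTAC and the glucocorticoid response hexamer TGTTCT. All sequences run 5′ to 3′ on the strand of the gene.
Ppp1r3c, chr19:36736605-36736854, minus strand: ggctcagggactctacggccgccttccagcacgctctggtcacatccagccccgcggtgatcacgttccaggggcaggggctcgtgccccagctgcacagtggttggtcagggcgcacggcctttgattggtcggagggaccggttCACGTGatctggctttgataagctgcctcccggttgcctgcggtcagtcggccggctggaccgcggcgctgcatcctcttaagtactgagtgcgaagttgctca
Ppp1r3g, chr13:35967656-35967905, plus strand: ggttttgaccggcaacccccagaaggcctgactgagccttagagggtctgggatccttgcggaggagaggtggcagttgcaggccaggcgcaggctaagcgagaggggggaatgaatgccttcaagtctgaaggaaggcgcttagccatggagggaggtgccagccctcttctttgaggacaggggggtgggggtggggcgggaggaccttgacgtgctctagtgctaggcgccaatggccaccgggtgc
Phka2, chrX:160501912-160502161, plus strand: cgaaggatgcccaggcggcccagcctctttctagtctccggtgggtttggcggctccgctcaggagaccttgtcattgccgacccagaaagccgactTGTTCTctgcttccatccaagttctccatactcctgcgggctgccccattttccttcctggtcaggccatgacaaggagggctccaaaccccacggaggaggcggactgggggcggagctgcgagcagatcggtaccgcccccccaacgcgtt

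The Ppp1r3c window held 1 E-box, the motif bound by Clock and Arntl among others, with its first base 104 bases before the start. Of all 32851 windows of the same length, 6.02% held an E-box. The Phka2 window held 1 glucocorticoid response hexamer, 153 bases before the start, which 16.1% of all windows held. None of the other members' windows held a match to any of the motifs, of which the D-box forms were in 0.819% and 0.694% of all windows, the cyclic AMP response element in 1.55% and the forkhead motif in 3.17%. A match is a stretch of letters in a window and not a binding site.

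The other genes of glycogen and glucose-6-phosphate handling were read from a list of 37, of which 32 had a probe set naming them alone. The other 5 were not analysed here. At the end of exposure 6 of the 32 rose and 0 fell, 18.8% of the list beside 5.40% of all probe sets, with a median log2 difference of 0.12. After recovery 4 rose and 1 fell, 15.6% beside 2.07%, with a median of 0.07. Between the SHS groups 1 rose and 2 fell, 9.38% beside 2.54%, with a median of -0.02. The median over all probe sets was 0 in each comparison. The shares and medians over all probe sets include dim ones and those naming no gene, whereas the list counts 1 leading probe set per gene. Without recovery replicate 72, a choice made after the data were seen, 1 of the 32 rose and 0 fell in recovery mice, and 0 passed between the SHS groups.

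**Figure D3:**
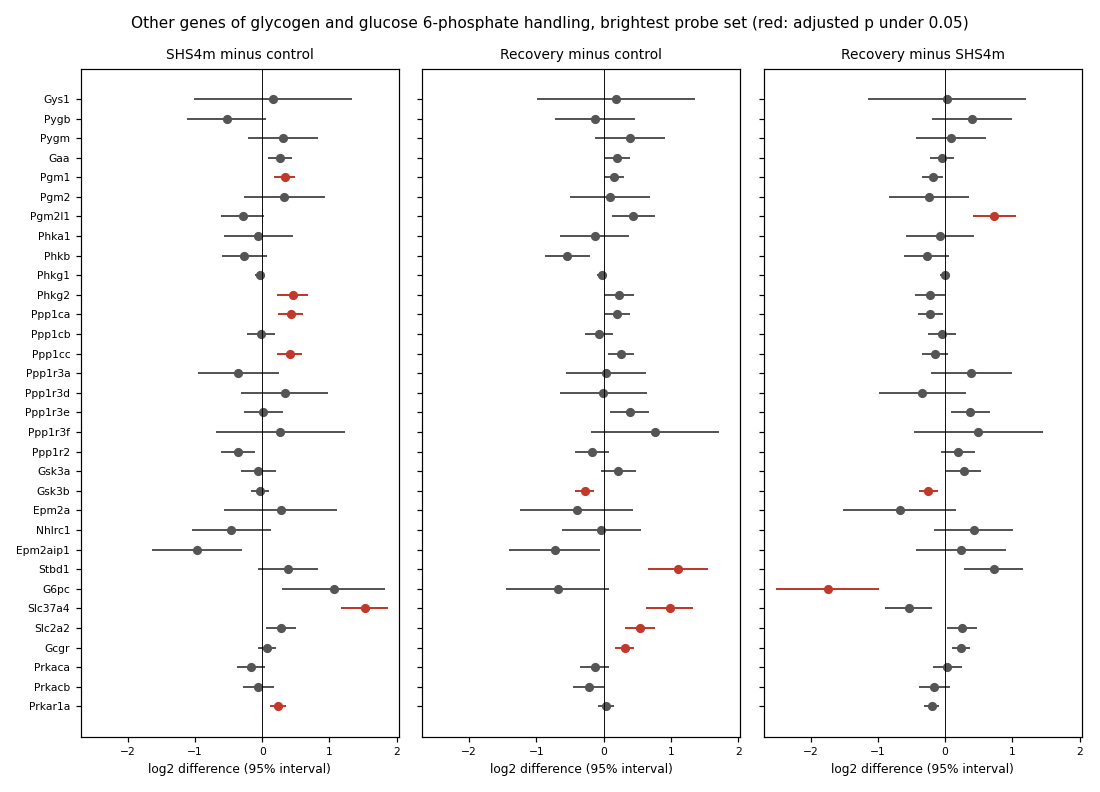
Log2 difference between group means (x axis) for the leading probe set of each of the 32 other genes of glycogen and glucose-6-phosphate handling (y axis), in 3 panels for the 3 comparisons. Points are limma estimates with 95% intervals and red marks an adjusted p under 0.05, which 6, 5 and 3 genes reached.

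The largest rise of this list was in Slc37a4, which carries glucose-6-phosphate into the endoplasmic reticulum for release as glucose. It read 3582, 4074, 3001 and 2603 in controls, 9496, 9954, 8385 and 9824 in SHS4m mice and 8064, 6172, 5732 and 6093 in recovery mice. The groups did not overlap, and SHS4m mice were 2.87-fold above controls (95% interval 2.28 to 3.62, adjusted p = 0.000796) and recovery mice 1.98-fold (1.57 to 2.49, adjusted p = 0.0140). Both passes held when any 1 array was left out. The fall between the SHS groups, log2 -0.54, did not pass (adjusted p = 0.105).

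G6pc, the catalytic subunit of glucose-6-phosphatase that works with Slc37a4, read 5836, 8361, 7646 and 5803 in controls. SHS4m mice read 16514, 13899, 12153 and 14790, and recovery mice 7784, 4526, 4445 and 2077. All SHS4m arrays were above all other arrays. The log2 difference of 1.06 from controls did not pass the adjusted test (adjusted p = 0.113), and that of -1.75 between the SHS groups did (0.298-fold, 95% interval 0.177 to 0.501, adjusted p = 0.0288). That pass was lost without any 1 of the 4 SHS4m arrays or without recovery replicate 71 or 72, with log2 differences of -1.68 to -1.82 and adjusted p of 0.0584 to 0.0773. For Gys2 the difference between the SHS groups was 0.45 and did not pass.

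Stbd1, which tethers glycogen to membranes, read 3325, 3933, 2428 and 2673 in controls, 3056, 4917, 4204 and 3917 in SHS4m mice and 5546, 7388, 7624 and 5825 in recovery mice. The recovery arrays were above all others, at 2.15-fold over controls (95% interval 1.60 to 2.90, adjusted p = 0.0227). In SHS4m mice the difference was 1.31-fold (adjusted p = 0.347). The glucose transporter Slc2a2 (1.45-fold, adjusted p = 0.0221) and the glucagon receptor Gcgr (1.24-fold, adjusted p = 0.0240) also rose in recovery mice. Gsk3b, a kinase that phosphorylates and inhibits glycogen synthase, was 0.822-fold of control (adjusted p = 0.0332), a fall that none of its 5 dimmer probe sets passed. Without recovery replicate 72 these 4 differences were 2.04-fold for Stbd1, 1.43-fold for Slc2a2, 1.22-fold for Gcgr and 0.834-fold for Gsk3b, and none passed (adjusted p = 0.0623, 0.0606, 0.0628 and 0.0837). Stbd1 and Slc2a2 were also lost without control replicate 3, control replicate 4 or recovery replicate 71, Gcgr without control replicate 1 or recovery replicate 73, and Gsk3b without any of 7 other arrays.

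**Figure D4:**
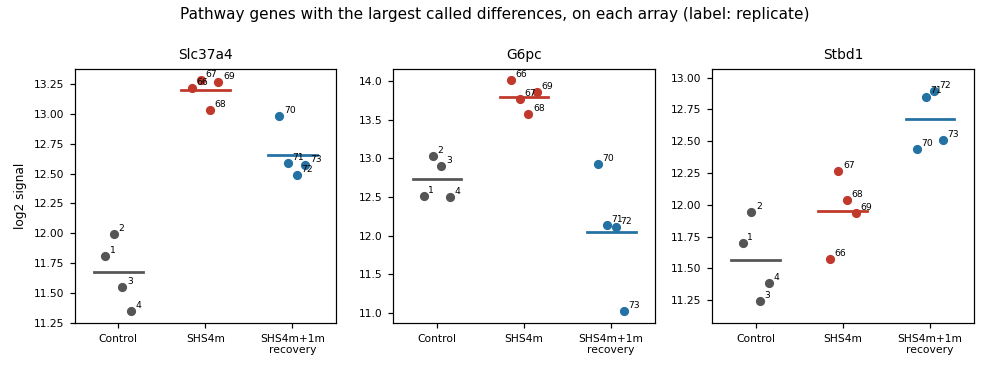
Log2 signal (y axis) of Slc37a4, G6pc and Stbd1 on each array by group (x axis), with replicate numbers beside the points and group means of 4 arrays as bars. SHS4m arrays lie above all others for Slc37a4 and G6pc, and recovery arrays lie above all others for Stbd1.

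The other 5 rises in SHS4m mice were smaller. They were in the phosphoglucomutase Pgm1 (1.26-fold, adjusted p = 0.0144), the phosphorylase kinase catalytic subunit Phkg2 (1.37-fold, adjusted p = 0.0244) and the protein phosphatase 1 catalytic subunits Ppp1ca (1.34-fold, adjusted p = 0.0118) and Ppp1cc (1.33-fold, adjusted p = 0.0169). A further catalytic subunit of that phosphatase, Ppp1cb, did not pass. Its leading probe set read 4806 to 5631 in controls and 4786 to 5445 in SHS4m mice. The regulatory subunit of protein kinase A, Prkar1a, was 1.18-fold up (adjusted p = 0.0169) on its leading probe set and down on a second one (1452032_at, log2 -0.38, adjusted p = 0.0340). Pgm1 and Ppp1cc also had a dimmer probe set each that did not pass, with log2 differences of -0.39 and 0.24. Between the SHS groups Pgm2l1, which makes glucose-1,6-bisphosphate, rose 1.66-fold (adjusted p = 0.0255), and Gsk3b fell to 0.842-fold (adjusted p = 0.0469). Without SHS4m replicate 68 or 69 or recovery replicate 71 or 72 Pgm2l1 did not pass (adjusted p = 0.0655 to 0.0696), nor did Gsk3b without any of 10 arrays (adjusted p = 0.0541 to 0.112). Phkg2 was lost in SHS4m mice without control replicate 4 or SHS4m replicate 67 or 68 (adjusted p = 0.0651 to 0.0665). The muscle synthase Gys1 and the brain and muscle phosphorylases Pygb and Pygm had log2 differences of 0.17, -0.53 and 0.31 in SHS4m mice and 0.19, -0.13 and 0.39 in recovery mice, and the kinase subunit Phkb of -0.27 and -0.54, none past the test.

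Glycogen enzymes in liver follow feeding, hormones and the time of day, so genes known to respond to each were read from lists on the same arrays. The shares of all probe sets that passed, against which the counts stand, were 5.40% in SHS4m mice, 2.07% in recovery mice and 2.54% between the SHS groups. These shares include dim probe sets and those naming no gene, whereas each list counts 1 leading probe set per gene. In the same order 7856, 5993 and 6185 of the 45037 probe sets had an unadjusted p under 0.05 in limma. The lists hold genes that the study itself listed from these arrays, among them Ppargc1a, Fkbp5, Cebpd, Mt1 and Mt2. The counts are therefore not independent of the study. Of 11 genes that fasting raises, 3 rose in SHS4m mice, and the 3 were Pck1 (2.29-fold, adjusted p = 0.0126), Ppargc1a (3.34-fold, adjusted p = 0.00422) and Igfbp1 (11.2-fold, adjusted p = 0.0160). In recovery mice 0 of the 11 passed limma's adjusted test against controls, with 3 at an unadjusted p under 0.05, and Ppargc1a and Igfbp1 fell between the SHS groups (log2 -1.68 and -4.38). The median log2 difference of the list was 0.66, 0.00 and -0.76 in the 3 comparisons. Of 11 genes that feeding raises, Scd1, Pklr and Me1 fell in SHS4m mice (log2 -0.63, -0.73 and -0.79), and Acaca rose in recovery mice (log2 0.62). Fasn, Acaca and Pklr rose between the SHS groups (log2 1.58, 0.69 and 1.18), and the list's medians were -0.60, 0.45 and 0.59. Of 9 genes induced by glucocorticoids 5 rose in SHS4m mice, among them Fkbp5 (4.26-fold), Cebpd (3.88-fold) and the metallothioneins Mt1 and Mt2, which metals also induce, and 1 (Fkbp5, 2.44-fold) rose in recovery mice. Between the SHS groups 4 of the 9 fell. With 1 array left out, 0 to 3 of the feeding genes fell in SHS4m mice, and 2 to 5 of the glucocorticoid genes fell between the SHS groups. What part food intake or hormones had in the glycogen genes was not tested.

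Of 16 clock genes 3 rose and 1 fell in each comparison with controls, and 0 passed limma's adjusted test between the SHS groups, where 3 had an unadjusted p under 0.05. The shares of all probe sets that passed were 5.40%, 2.07% and 2.54%. Between the SHS groups 6185 of the 45037 probe sets had an unadjusted p under 0.05 in limma. The clock genes that passed are among those that the study itself listed from these arrays, so their counts are not independent of it. With 1 array left out, 1 to 4 clock genes rose in SHS4m mice, and in recovery mice 1 rose without any single array other than control replicate 2, without which 4 did. Tef, a transcription factor whose level follows the daily cycle, was 2.07-fold above controls in SHS4m mice and 2.35-fold in recovery mice (adjusted p = 0.0126 and 0.0145). The repressor Per2 stood 2.50-fold and then 2.46-fold above controls (adjusted p = 0.0228 and 0.0449), Ciart 6.62-fold and 6.05-fold (adjusted p = 0.0215 and 0.0480), and Clock 0.492-fold and 0.440-fold of control (adjusted p = 0.0119 and 0.0145).

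The control mice differed among themselves in some of the clock genes. Dbp, another transcription factor of the daily cycle, was singled out after its values were seen. It read 7321 and 7943 in control replicates 1 and 2 and 2376 and 1364 in replicates 3 and 4. Tef read 3101 and 3571 against 2072 and 1845, and Ciart 199 and 260 against 59.9 and 57.0. Per2 (239 and 283 against 256 and 125) and Per1 (212 and 858 against 136 and 325) did not split in this way. Replicates 3 and 4 were also the controls with the lowest Gys2, with Ppp1r3g under the floor, and with the highest Ppp1r3b (6667 and 5672 against 1725 and 3006). The part that time of day had in Gys2 or Ppp1r3g was not tested, and the hour of collection cannot be told apart from the exposure on these arrays.

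**Figure D5:**
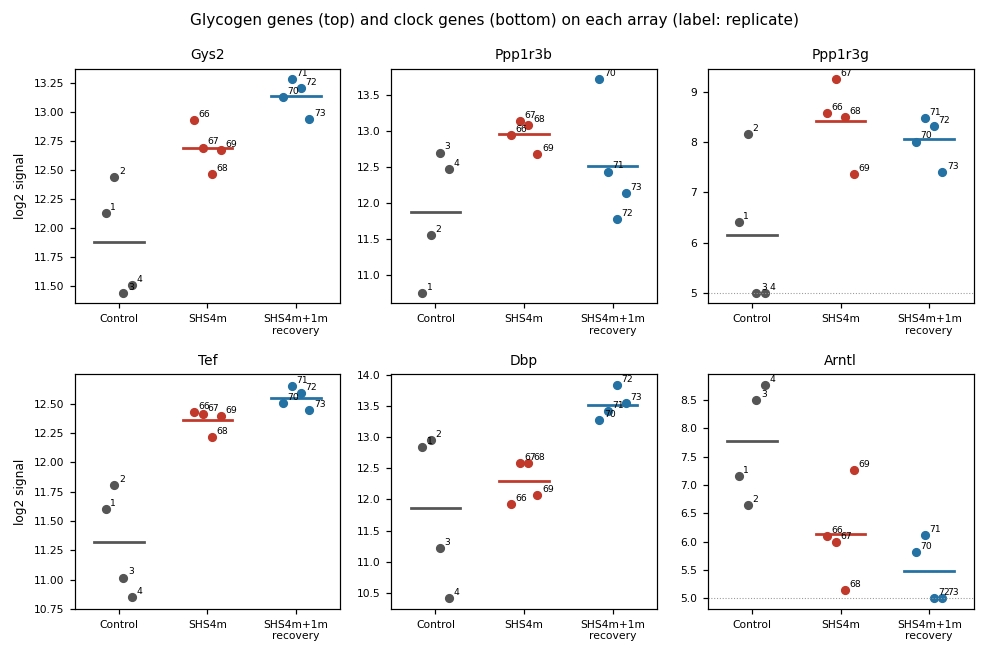
Log2 signal (y axis) of 3 glycogen genes (Gys2, Ppp1r3b, Ppp1r3g) and 3 clock genes (Tef, Dbp, Arntl) on each array by group (x axis), with replicate numbers beside the points, group means of 4 arrays as bars and the floor of 32 as a dotted line. Control replicates 3 and 4 lie below replicates 1 and 2 for Gys2, Ppp1r3g, Tef and Dbp and above them for Ppp1r3b and Arntl.

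Likeness of pattern was measured by Pearson's correlation of log2 signals over the 12 arrays, among 12529 genes, as a description. The 3 genes most like Gys2 were Slc5a6 (r = 0.970), Tef (r = 0.969) and Pcsk4 (r = 0.967), and after the group means were taken out the correlations were 0.923, 0.952 and 0.874. For Gyg the 3 were Treh (r = 0.918), Stat3 (r = 0.917) and Lcn2 (r = 0.912), and Lcn2, an acute-phase protein, had a log2 difference of 3.56 in SHS4m mice and 0.38 in recovery mice. For Ppp1r3g they were Rhoq (r = 0.949), Sf3b1 (r = 0.944) and Ubr4 (r = 0.937). These correlations share the arrays, the groups and the scaling, and were the highest of many.

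Markers of other cells were compared, since Gyg and protein phosphatase subunits are made in many cell types. Of 7 Kupffer cell and macrophage markers, Marco rose (3.73-fold) and Clec4f fell (0.700-fold) in SHS4m mice. In that comparison 6 of the 7 had an unadjusted p under 0.05 in limma, as had 7856 of all 45037 probe sets. The median log2 difference of the 7 was -0.35. Over all probe sets the unadjusted p was under 0.05 for 5993 in recovery mice and 6185 between the SHS groups. The adjusted test was passed by 5.40%, 2.07% and 2.54% of all probe sets in the 3 comparisons. Clec4f rose between the SHS groups (1.38-fold). The summed signal of the 7 was 15662 to 18991 in controls, 12634 to 15726 in SHS4m mice and 13422 to 18126 in recovery mice. Of 5 genes listed as lymphocyte markers, Ptprc fell in SHS4m mice (0.601-fold) and rose between the SHS groups (1.56-fold). Ptprc is made by white blood cells in general and does not mark lymphocytes alone. The sum of the 5 was 1102 to 1535 in controls, 781 to 957 in SHS4m mice and 1212 to 1324 in recovery mice, so that the SHS4m arrays lay below all others. Within this sum Ptprc read 613 to 912 in controls and 379 to 486 in SHS4m mice. The leading Ighm probe set overlapped, at 275 to 458 and 290 to 424, and the remaining genes read at most 127. Of 6 endothelial, 6 stellate cell, 4 cholangiocyte, 6 skeletal muscle and 2 adipocyte markers 0 passed limma's adjusted test in any comparison, with at most 3 of any list at an unadjusted p under 0.05. The endothelial sum was 4411 to 6657 in controls, 4466 to 5264 in SHS4m mice and 5311 to 6872 in recovery mice. The stellate cell sum was 7028 to 11174, 9040 to 12356 and 7504 to 9950 in the same order, and the cholangiocyte sum 385 to 431, 415 to 474 and 289 to 437. The adipocyte sum was 17.9 to 47.1, 10.5 to 45.9 and 24.5 to 54.4, and 1 of its 2 genes was below the floor on all arrays. The muscle sum was 226 to 369 in controls, 299 to 416 in SHS4m mice and 214 to 417 in recovery mice. The part of these cells in the signals of the glycogen genes was not tested.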

How the data were processed

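Total RNA from 12 mouse livers was hybridised to Affymetrix mouse genome arrays. The deposited values are intensities on a linear scale, which the authors made in Affymetrix Expression Console (named in the submitters' processing notes) and scaled to a mean of 500 after trimming 2% at each end. How the probes were summarised is not stated in these sources. Of 45101 probe sets, 64 array controls were left out. Of the 45037 tested, 34945 name 1 gene in the platform annotation, 932 several and 9160 none.

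Values below 32 were raised to 32, the log2 of the deposited intensities was taken, and limma 3.58.1 in R 4.3.3 fitted the 3 group means (4 arrays each) in 1 model, with two-sided p-values and Benjamini-Hochberg adjustment over all probe sets. The study's cutoff of a p under 0.05 together with a 2-fold change, its p taken as unadjusted, is counted beside the adjusted p. The fit was tested on simulated data. The number of arrays limits the precision, and each p-value sets a difference between groups against the spread between mice within groups.

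The 9 genes and all lists were chosen with earlier results of these data known. Named were all members, the pathway genes past the adjusted p together with a set of core enzymes, up to 4 examples of the other lists by smallest p, and the 3 genes most alike in pattern to Gys2, Gyg and Ppp1r3g. Marker genes that passed were named as well, and Arntl, Dbp and Lcn2 were singled out after their values were seen. Alternatives were other floors, a filter on dim probe sets, quantile normalization, centring, 8 arrays only, a trended fit, array weights and each array left out. Leaving out arrays for the dim Ppp1r3c probe set, the other pathway genes and the lists was added after the data were seen. Promoter windows are RefSeq's (GRCm38.p6), and no genome was used.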

Additional observations from a re-analysis of the deposited data

Results flagged for a closer look

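In 4 groups of 4 arrays, 1 array stood apart from the other 3 by Dixon's test at the 95% level, of 96 groups over 33 probe sets, where chance alone gives about 1 in 20. The log2 signal of Pygl was 13.68 in control replicate 2 and 13.92 to 13.94 in the other controls. Phka2 1437941_at was 5.51 in control replicate 1, and the other controls were at 5 to 5.09, where 5 is the floor. The signals of control replicates 1 to 4 were 45.5, 33.9, 24.2 and 9.58, so the floor drew the lower controls together and this flag rests on it. The rate of 1 in 20 does not hold for groups with values at the floor. Recovery replicate 71 stood apart for Ppp1cc, at 13.06 against 13.25 to 13.29, and for Prkar1a, at 11.12 against 10.96 to 10.98.

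For 3 pathway genes limma's direct comparison of recovery with SHS4m mice passed the adjusted p with all 12 arrays. The log2 difference was 0.73 for Pgm2l1 (adjusted p = 0.0255), -0.25 for Gsk3b (adjusted p = 0.0469) and -1.75 for G6pc (adjusted p = 0.0288). Without recovery replicate 72 none of the 3 passed (adjusted p = 0.0655, 0.112 and 0.0651), and each was also lost without certain other arrays. Of all probe sets 2.54% passed in this comparison.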

How the results depend on the processing

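Gys2 kept its rise in recovery mice past the adjusted p in 15 of 21 alternatives, with log2 differences of 1.12 to 1.45 and adjusted p of 0.0119 to 0.0867. It passed in SHS4m mice in 3 of 21 (adjusted p 0.0181 to 0.148). The count of glycogen probe sets past the adjusted p in SHS4m mice was 1. It was 0 with a floor of 16, with each array's 25th percentile as floor and with no floor, 2 with dim probe sets left out or arrays centred, and 0 to 2 with 1 array left out. In recovery mice the count was 1. It was 0 with no floor or with only the 8 arrays compared, and 0 to 2 with 1 array left out. Without control replicate 2 both counts were 2. Without control replicate 3 or 4 both were 0, as was the SHS4m count without SHS4m replicate 66, 67 or 68 and the recovery count without recovery replicate 71 or 72. Between the SHS groups it was 0 throughout. At the study threshold the SHS4m count was 1 to 3, the recovery count 1 to 3 and that between the SHS groups 0 to 1 over all alternatives. Small differences that had not passed changed sign. Centring, which moved the median of all probe sets by 0.08 in both comparisons with controls, turned Pygl to 0.023 in SHS4m and 0.016 in recovery mice and Ppp1r3c to 0.029 in SHS4m mice. Array weights turned Ppp1r3c to 0.00097. With 1 array left out, Ppp1r3c ranged from -0.42 to 0.24 and Phka2 1434518_at from -0.0072 to 0.149 in SHS4m mice, Gbe1 from -0.025 to 0.288 in recovery mice and from -0.291 to 0.022 between the SHS groups, and Pygl from -0.044 to 0.038 between them. The cause of these changes was not tested. No paired analysis was possible because the groups share no replicate numbers.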
